A study of Mus musculus with 192 samples.

Results

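The collagen genes other than Col4a1 and Col4a2 were followed in mouse embryonic stem cells during retinoic acid differentiation. Of the 44 mouse genes whose symbol has the form of a collagen chain (Col, a type number, a and a chain number), 42 are described here and the 2 basement membrane genes Col4a1 and Col4a2 are set aside. All 42 were listed in the tables of total RNA. In the tables of cytoplasmic and nuclear RNA 34 were listed, and the 8 others (Col5a3, Col6a4, Col6a5, Col6a6, Col7a1, Col12a1, Col4a5 and Col4a6) were not analysed there. By chain structure there were 11 fibrillar collagens, 9 fibril-associated collagens with interrupted triple helices (FACIT), 6 type VI chains, 4 type IV chains, 4 transmembrane collagens, 3 short-chain network collagens, 2 multiplexins and 3 others.

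The cells were wild-type E14 embryonic stem cells of the 129/Ola strain, 1 line that all groups share. Before differentiation (0 h) they were held in 2i medium, with a MEK inhibitor, a GSK3 inhibitor and LIF, and they were then moved to N2B27 medium holding all-trans retinoic acid at 0.25 µM, under which the culture splits into cells like extraembryonic endoderm (XEN) and cells like ectoderm (ECT). Cytoplasmic and nuclear RNA came from 3 differentiation runs, numbered 5, 6 and 7, each sampled at 8 times (0, 6 and 12 h, then 24, 36 and 48 h, and last 72 h and 96 h). Total RNA came from 3 other differentiation runs, as the study's sample sheet gives them: replicate 1 (the same times without 12 h), replicate 2 (0 and 96 h) and replicate 3 (0, 12, 24, 36 and 48 h, sequenced from both ends). A single library each was made from XEN and ECT cells sorted at 96 h on the surface proteins CD24 and PDGFRA, and the study's sample sheet marks both as blacklisted.

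Collagens are trimers of alpha chains wound into a triple helix. The chains are hydroxylated on proline and lysine in the endoplasmic reticulum, exported in large carriers, trimmed outside the cell and crosslinked. Fibrillar collagens build the fibrils of skin, bone and cartilage, FACIT collagens sit on those fibrils, type IV and type VI collagens form networks in or beside basement membranes, and the multiplexins Col15a1 and Col18a1 carry the endostatin domain at their end and lie in basement membranes. In the early embryo the parietal endoderm is best known for its output of the type IV chains set aside here.

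Promoters of 3 members are shown because their transcripts followed different courses. In cytoplasmic RNA Col18a1 rose at once, and Col1a2 and Col27a1 fell and then rose late. Col27a1 was also 3.79 times as high in sorted XEN as in sorted ECT. Each window runs from 250 bases before to 50 bases after a RefSeq start (GRCm38.p6), on the strand of the gene. Capitals mark any of 4 motifs on either strand: the GC box (GGGCGG), the TATA box (TATAAA), the CCAAT box (CCAAT) and the half-site of nuclear receptors (AGGTCA), the class to which the retinoic acid receptors belong. Col18a1 has 2 RefSeq starts 52.8 kb apart, and both are given. The window of Col27a1 lies inside the gene, whose range begins upstream at base 63214009 of chromosome 4. That end is not shown.
Col18a1 distal start, chr10:77166481-77166780, minus strand: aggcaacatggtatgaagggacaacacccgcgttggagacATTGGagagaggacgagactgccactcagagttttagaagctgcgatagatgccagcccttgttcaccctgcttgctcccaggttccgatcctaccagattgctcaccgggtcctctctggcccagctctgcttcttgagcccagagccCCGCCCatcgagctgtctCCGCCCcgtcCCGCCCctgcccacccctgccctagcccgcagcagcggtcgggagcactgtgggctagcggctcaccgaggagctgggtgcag
Col18a1 proximal start, chr10:77113656-77113955, minus strand: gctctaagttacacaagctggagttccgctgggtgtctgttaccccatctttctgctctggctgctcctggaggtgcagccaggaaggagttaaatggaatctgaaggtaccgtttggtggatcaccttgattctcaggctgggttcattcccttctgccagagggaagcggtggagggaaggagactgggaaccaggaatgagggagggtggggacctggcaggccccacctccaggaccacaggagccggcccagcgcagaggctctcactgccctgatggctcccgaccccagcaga
Col1a2, chr6:4505368-4505667, plus strand: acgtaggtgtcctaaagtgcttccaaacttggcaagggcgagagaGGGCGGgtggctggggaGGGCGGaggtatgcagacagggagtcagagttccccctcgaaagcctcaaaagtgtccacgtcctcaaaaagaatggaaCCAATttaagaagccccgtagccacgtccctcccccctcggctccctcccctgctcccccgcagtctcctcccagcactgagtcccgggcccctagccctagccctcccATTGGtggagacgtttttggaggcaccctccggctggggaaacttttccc
Col27a1, chr4:63215162-63215461, plus strand: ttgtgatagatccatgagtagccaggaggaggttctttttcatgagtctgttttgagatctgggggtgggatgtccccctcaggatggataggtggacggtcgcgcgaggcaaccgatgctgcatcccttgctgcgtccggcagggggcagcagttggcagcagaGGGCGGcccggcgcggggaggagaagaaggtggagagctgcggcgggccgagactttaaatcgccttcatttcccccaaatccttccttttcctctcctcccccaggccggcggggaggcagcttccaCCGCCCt
The distal window of Col18a1 held 3 GC boxes and 1 CCAAT box, whereas the proximal one held none of the 4 motifs. Col1a2 held 2 GC boxes and 2 CCAAT boxes, and Col27a1 held 2 GC boxes. None of the 4 windows held TATAAA or AGGTCA. Over the 36 member promoters in the table (33 genes), 58.3% held a GC box against 35.7% of all 32851 promoters, 30.6% against 37.4% held CCAAT, 13.9% against 13.6% held TATAAA and 22.2% against 16.3% held AGGTCA. These are matches of letters, with no binding measured.

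Depth was 9119521 to 21652601 read pairs assigned to genes in the 24 cytoplasmic libraries and 6860451 to 30624948 in the 24 nuclear ones. It was 29362017 to 36364330 in the single-end total RNA libraries, 12653980 to 13692847 in the paired-end ones, 28422965 in sorted XEN and 36228870 in sorted ECT. The cytoplasmic library of run 5 at 6 h stood apart: among 2469 genes of low level it had 874 at 0 counts, against 671 in the next library and a median of 155, so results at 6 h are also given without it. In total RNA, the replicate 1 libraries of 36 and 48 h differed from each other by 1.18 times the sampling noise (over 13405 genes) where the next closest pair of libraries differed by 10.1 times, so that these 2 libraries are not read as separate time points. RNAs that are known to be kept in the nucleus differed little between the fractions: Malat1 was 0.37 ± 0.08 higher on the log2 scale (SE, edgeR, adjusted p = 0.0005632) and Neat1 0.77 ± 0.08 higher (adjusted p = 6.87e-09) in nuclear than in cytoplasmic RNA. Levels below are CPM, counts as a share of the library's total after scaling by the trimmed mean of M-values, and compare a gene between libraries, not genes with each other.

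Over 96 h of retinoic acid the transcripts of many collagens rose, with Col18a1, Col2a1, Col27a1 and Col5a1 ending at the highest levels. In cytoplasmic RNA 16 of the 34 listed members rose from 0 h to 96 h, 2 fell, 5 did not pass the test and 11 were too low to be tested (edgeR quasi-likelihood test, adjusted p under 0.05). Over all 11817 genes tested 31.8% rose and 29.5% fell. The 23 members tested had a median log2 change of 3.32, against 0.02 for all genes tested. A gene low at 0 h enters the test only if it is high later, so that this median describes the members that passed the filter and not the family. By structure, 7 of 10 listed fibrillar collagens rose, as did 3 of 8 FACIT collagens, 2 of 3 type VI chains, 1 of 4 transmembrane collagens, 1 of 3 network collagens, and 1 of the 2 listed in each of the last groups, Col18a1 among the multiplexins and Col26a1 among the others. The tested member with the lowest mean count was Col3a1, at 21.6 counts per library, and the nearest one left out was Col9a1, at 8.9.

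**Figure D1:**
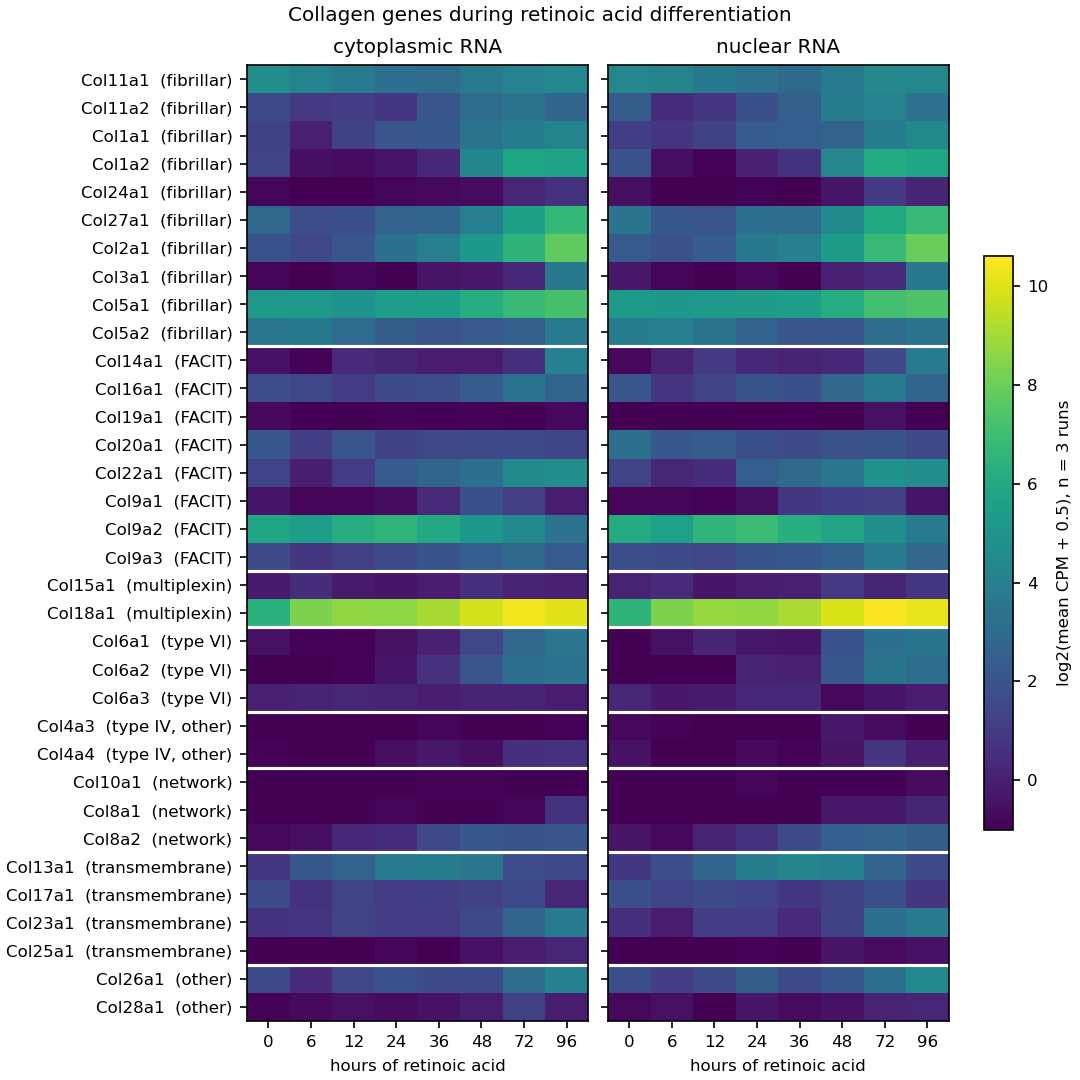
Levels of the 34 listed collagen genes over time, as log2(mean CPM + 0.5) of 3 runs, in cytoplasmic (left) and nuclear RNA (right), with white lines between structural groups. Col18a1 is the brightest row from 6 h on, most fibrillar and type VI genes brighten from 48 h, Col13a1 is brightest between 24 and 48 h, and Col9a2 fades after 24 h.

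Col18a1, the multiplexin whose cleaved end is endostatin, had the highest per-length level of all listed members at every time after 0 h. At 0 h its cytoplasmic levels in runs 5, 6 and 7 were 68.3, 91.7 and 92.6 CPM, and at 6 h they were 339, 278 and 329 CPM. They reached 1277, 1290 and 1310 CPM at 72 h and were 1069, 1058 and 1072 CPM at 96 h. No library from 6 h on overlapped the 0 h libraries, and the mean at 96 h was 12.5 times that at 0 h (log2 3.66 ± 0.15 SE, adjusted p = 1.896e-23, edgeR). Per length, Col18a1 went from 20.6 ± 2.8 to 315 ± 9 TPM (a measure per transcript length; SD, n = 3), and its share of the TPM summed over the 34 listed members went from 27.5% at 0 h to 62.9% at 6 h and 60.3% at 96 h. The other multiplexin, Col15a1, had at most 2.62 CPM in any fraction library.

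The tables do not count the transcripts of the 2 Col18a1 starts apart. The annotated full transcript from the distal start has 5063 bases and those from near the proximal start have 4791 and 5595 bases. The mean length that the authors' counting assigned to the gene was between 4568 and 5063 bases in the fraction libraries, between 4884 and 5067 bases in single-end total RNA, and 5063 and 5062 bases in sorted XEN and ECT. A mean at the length of the distal transcript can also come from a mix of the proximal transcripts, one shorter and one longer, so the mean length alone does not tell the starts apart.

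Col2a1, the fibrillar collagen of cartilage and notochord, had a higher mean at each time from 12 h on. Its cytoplasmic levels were 3.21, 3.47 and 3.28 CPM at 0 h and 191, 214 and 241 CPM at 96 h (runs 5, 6 and 7). The ranges were far apart, with a 64.2-fold difference in the means (log2 6.02 ± 0.29 SE, adjusted p = 4.849e-21, edgeR). Its means in between were 9.25 ± 0.61 CPM at 24 h, 36.4 ± 4.0 CPM at 48 h and 93.6 ± 18.0 CPM at 72 h (SD, n = 3). Markers of cartilage and notochord (6 of 8 listed) had a summed level of 24.5 to 26.5 CPM at 0 h and 31.6 to 36.2 CPM at 96 h, and at 96 h 2 of the 6, Sox9 and Hapln1, were at 1 CPM or more. Within the list the means went in opposite directions, with Sox9 from 0.0199 to 17.1 CPM and Hapln1 from 0 to 14.3 CPM, but Matn1 from 14.3 to 0.409 CPM and T from 10.3 to 0.737 CPM. Their part in the rise of Col2a1 was not tested.

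The other fibrillar collagens that rose did so late. Col27a1, a fibrillar collagen of cartilage, had 6.51, 6.63 and 7.16 CPM at 0 h, 2.88, 3.23 and 2.33 CPM at 6 h and 89.5, 95.9 and 134 CPM at 96 h. It was thus lower in every run at 6 h than at 0 h and higher in every run at 96 h (log2 3.97 ± 0.28 SE, adjusted p = 9.12e-16). Total RNA showed no such early fall, at low counts. There Col27a1 was at 0.371 CPM at 0 h and 0.397 CPM at 6 h in replicate 1. In replicate 3 it was at 1.67 CPM at 0 h and 1.81 CPM at 12 h. Col5a1, the chain that starts type I fibrils, was at 32.7, 37.9 and 42.3 CPM at 0 h and at 143, 141 and 161 CPM at 96 h (log2 1.97 ± 0.15 SE, adjusted p = 1.07e-14). Its libraries overlapped those of 0 h up to 24 h and lay above all of them from 36 h.

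The chains of type I collagen, the main collagen of skin and bone, were low at first. Col1a2 had 1.93, 2.34 and 1.97 CPM at 0 h, 0, 0.346 and 0.222 CPM at 6 h, 17.6, 18.7 and 22.5 CPM at 48 h and 45, 50.6 and 57.5 CPM at 96 h. The fall of Col1a2 at 6 h passed the test with the run 5 library (log2 -3.66 ± 0.73 SE, adjusted p = 0.0001535) and without it (log2 -2.83 ± 0.77, adjusted p = 0.005939), as did its rise at 96 h (log2 4.62 ± 0.41, adjusted p = 1.046e-12). In total RNA Col1a2 was at 0.593 CPM at 0 h and 0.108 CPM at 6 h in replicate 1. In replicate 3 it was at 0.076 CPM at 0 h and 0.29 CPM at 12 h. Its partner Col1a1 went from 1.86 ± 0.93 to 18.4 ± 5.8 CPM (SD, n = 3; log2 3.32 ± 0.46 SE, adjusted p = 4.895e-08). The type I trimer holds a pair of Col1a1 chains to each Col1a2 chain, whereas the TPM ratio of Col1a1 to Col1a2 transcripts at 96 h was 0.225, 0.292 and 0.377 in the 3 cytoplasmic libraries and 0.223, 0.339 and 0.355 in the nuclear ones. Col1a2 was above Col1a1 in all 6. At 6, 12, 24 and 36 h, when neither averaged more than 0.903 TPM in cytoplasmic RNA, the ratio of the mean TPM was the other way round, at 1.63, 11.7, 12.4 and 4.52. In total RNA at 96 h the levels of both chains were closer to each other. Col1a1 and Col1a2 were at 0.85 and 1.03 TPM in replicate 1 and at 1.24 and 1.3 TPM in replicate 2.

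Col3a1, the fibrillar collagen of soft tissue, stayed at or under 1.2 CPM in every cytoplasmic library up to 72 h and was at 10.3, 12.2 and 14.6 CPM at 96 h. With 2 counts over the 0 h libraries and 470 over those of 96 h, the ratio was 228 with a 95% counting interval of 62.7 to 1887. Its neighbour on chromosome 1, Col5a2, moved otherwise, from 11.3 ± 0.6 CPM at 0 h to 3.72 ± 0.70 CPM at 36 h and 13 ± 2.2 CPM at 96 h (96 h against 0 h, log2 0.20 ± 0.41 SE, adjusted p = 0.6903). The TPM ratio of Col5a1 to Col5a2, the chains of type V collagen, therefore went from 2.6 at 0 h to 13.4 at 48 h and 8.85 at 96 h (ratios of means).

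The type XI chains, which copolymerise with type II collagen, had other courses than Col2a1. Col11a1 was at 20.5, 26.7 and 31.4 CPM at 0 h, 7.82, 8.82 and 8.53 CPM at 36 h and 19.5, 23.4 and 18.9 CPM at 96 h. All 36 h libraries lay below all 0 h libraries, and the 96 h libraries overlapped them (log2 -0.35 ± 0.25 SE, adjusted p = 0.2237). Col11a2 rose from 2.67 ± 0.31 to 6.44 ± 1.98 CPM (log2 1.28 ± 0.42, adjusted p = 0.008824), a call that was lost when run 7 was left out. Col24a1 was under the filter, with at most 2.18 CPM.

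**Figure D2:**
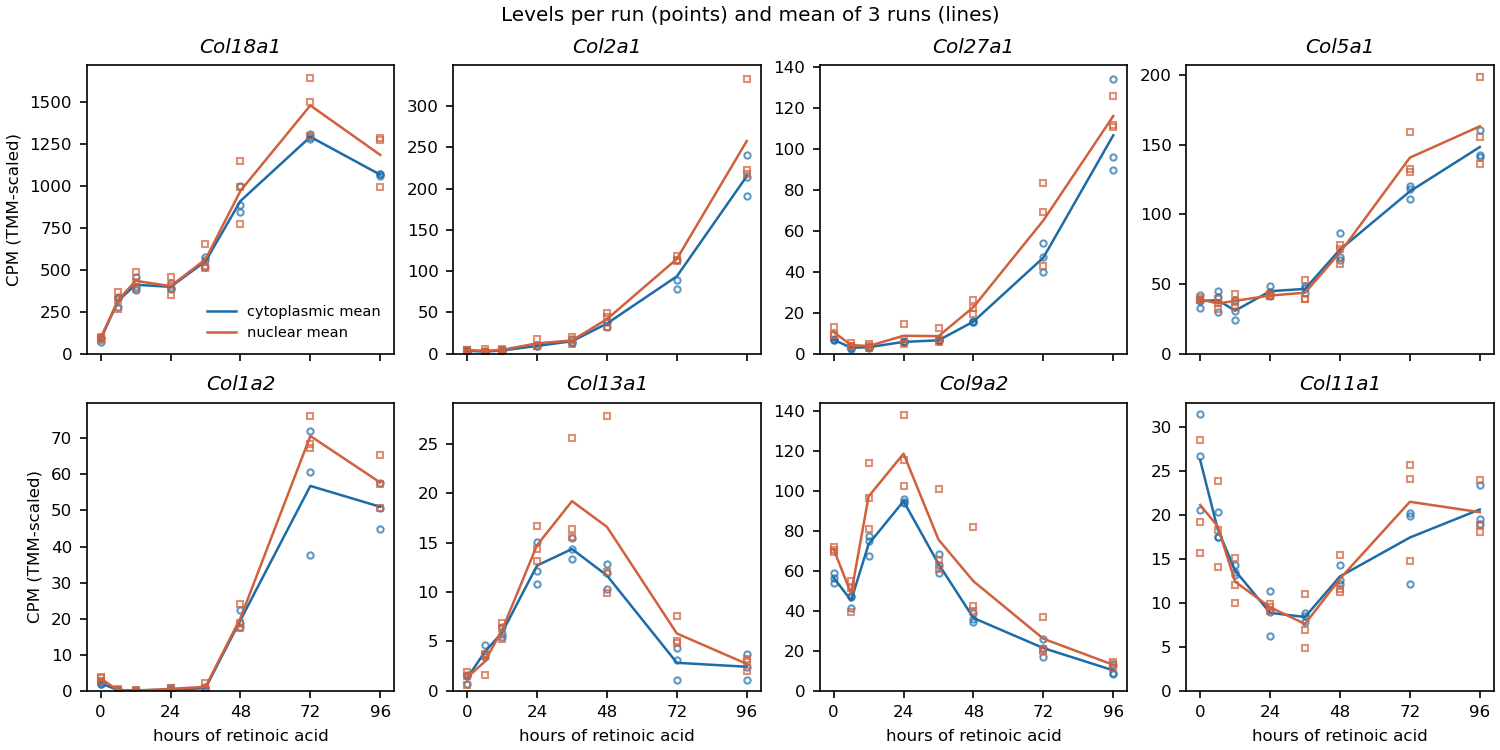
Levels of 8 collagen genes in CPM against hours of retinoic acid, with a vertical axis from 0 of its own for each gene, points for the 3 runs and lines for their means, in cytoplasmic (circles) and nuclear RNA (squares). Col18a1 climbs from the first point, Col2a1 climbs from 24 h, Col27a1, Col5a1 and Col1a2 climb after 36 h, Col13a1 and Col9a2 pass through a maximum, and Col11a1 passes through a minimum at 36 h.

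Among the FACIT collagens the directions were mixed, with 3 that rose (Col14a1, Col16a1, Col22a1), 1 that fell (Col9a2) and 2 that did not pass the test (Col9a3, Col20a1). Col9a2, a chain of the type IX collagen that coats cartilage fibrils, was at 58.9, 56.6 and 54.1 CPM at 0 h, 94.6, 96.1 and 93.8 CPM at 24 h and 8.63, 9.11 and 13 CPM at 96 h. It was above 0 h in every run at 24 h and below it in every run at 96 h (log2 -2.48 ± 0.23 SE, adjusted p = 2.064e-12). Its partner chains were scarcer: the TPM ratio of Col9a3 to Col9a2 went from 0.10 at 0 h to 0.77 at 96 h, and Col9a1 had at most 3.64 CPM. Col22a1, a collagen of tissue junctions, went from 2.02 ± 0.53 to 26.5 ± 4.7 CPM (log2 3.68 ± 0.44, adjusted p = 2.084e-09). Col14a1 was at 0.24 ± 0.15 CPM at 0 h and 1.04 ± 1.04 CPM at 72 h, and then at 11.5, 18.4 and 20.0 CPM at 96 h (log2 6.16 ± 1.08, adjusted p = 4.578e-06), the only member whose rise was first called at 96 h. Col16a1 passed with a smaller change (log2 1.15 ± 0.37, adjusted p = 0.007077) that was lost without run 6, and Col19a1 was under the filter.

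Type VI collagen is assembled from a Col6a1, a Col6a2 and one of several longer chains, and the genes of the first pair both rose. Col6a1 had 0.459, 0.102 and 0.119 CPM at 0 h and 8.71, 9.84 and 14.9 CPM at 96 h (adjusted p = 7.677e-08). Col6a2 had 0 counts at 0 h in all 3 libraries and 9.77, 8.43 and 12.3 CPM at 96 h, at least 122.5-fold higher with a floor of 3 counts over the group (adjusted p = 7.369e-11). Per length their ratio at 96 h was 0.880, 1.13 and 1.2 in runs 5, 6 and 7. The longer chain Col6a3 was under the filter, with a mean of 0.070 TPM at 96 h against 4.01 TPM for Col6a1. Col6a2, Col6a1 and Col18a1 lie near each other on chromosome 10, and their first calls came at 24, 48 and 6 h.

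The transmembrane collagens and the remaining groups moved in several ways. Col13a1, a collagen of cell junctions, was at 1.65, 0.714 and 1.49 CPM at 0 h, 13.3, 15.4 and 14.3 CPM at 36 h and 2.44, 1.11 and 3.76 CPM at 96 h, a transient rise whose last point overlapped the first (log2 0.85 ± 0.44 SE, adjusted p = 0.09558). Col23a1 went from 1.11 ± 0.40 to 13.1 ± 2.4 CPM (log2 3.55 ± 0.68, adjusted p = 1.945e-05). Col17a1, of the hemidesmosome, fell (log2 -1.83 ± 0.69, adjusted p = 0.02104), a call lost without run 6 or without run 7. Col26a1 went from 2.44 ± 0.44 to 16.5 ± 1.0 CPM (log2 2.75 ± 0.50, adjusted p = 8.953e-06). Col8a2, of the network of Descemet's membrane, had 3 counts over the 0 h libraries and 146 over those of 96 h, a ratio of 47.2 with a counting interval of 15.8 to 231.5. The type IV chains Col4a3 and Col4a4 were under the filter, at up to 1.10 and 1.41 CPM, and so were Col8a1, Col10a1, Col25a1 and Col28a1, at up to 3.29 CPM.

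Markers of several cell types moved over the same interval. In cytoplasmic RNA the summed level of the 12 listed XEN markers went from 1454 to 1674 CPM at 0 h to 28580 to 45090 CPM at 96 h, with all 12 at 1 CPM or more at 96 h. The 7 listed ectoderm-like markers went from 68.4 to 79.1 CPM to 949 to 984 CPM, with all 7 at 1 CPM or more. The 11 listed fibroblast and mesenchyme markers went from 24.2 to 29.9 CPM to 224 to 274 CPM, with 8 at 1 CPM or more. Among these the means of Pdgfrb and Lum fell, from 24.8 to 8.12 CPM and from 0.481 to 0.0563 CPM. The other listed means rose, led by Acta2 from 0 to 143 CPM and Meox1 from 0 to 70.2 CPM. In the same libraries the 7 listed markers of naive pluripotency went from a median of 5754 CPM to one of 227 CPM (lowest 5688 CPM at 0 h, highest 309 CPM at 96 h). The summed level of the 7 listed trophoblast markers went from 163.5 to 168.5 CPM to 39.6 to 44.1 CPM. Within that list the means went in opposite directions. Tfap2c fell from 133 to 6.05 CPM and Cdx2 from 28.7 to 2.45 CPM. Gata3 rose from 0.821 to 19.55 CPM, and Krt7 and Hand1 rose too. Elf5 and Prl3d1 stayed under 1 CPM. At 1 CPM or more were 3 of the 7 at 0 h and 5 at 96 h. The part of all these markers in the collagen results was not tested. In these bulk samples a change in the number of cells of a type and a change in RNA per cell cannot be told apart.

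The order of first calls was read from each earlier time against 0 h in the same fit, with 23 members tested at each time. It is an order of detection, which also depends on count level and spread. Col5a1, for example, was first called at 48 h although its libraries lay above those of 0 h from 36 h. At 6 h 2 members rose (Col13a1 and Col18a1) and 6 fell (Col1a1, Col1a2, Col20a1, Col22a1, Col26a1 and Col27a1), where 12.9% of all genes tested rose and 11.7% fell. Without the run 5 library of 6 h the 2 rises remained and 2 of the falls passed, those of Col1a2 and Col27a1 (Col27a1 log2 -1.29 ± 0.37 SE, adjusted p = 0.009096). At 12 h 2 rose and 3 fell (background 13.8% and 12.7%), and at 24 h 7 rose and 4 fell (18.7% and 16.5%). At 36 h 7 rose and 3 fell (22.2% and 19.9%). At 48 h 12 rose and 3 fell (26.5% and 23%), and at 72 h 17 rose and 3 fell (30.1% and 27.8%). Thus up to 12 h 2 of the 34 listed members had passed the test for a rise, and the first call of a rise came at 24 h for 5 members (Col2a1, Col6a2, Col8a2, Col9a2 and Col22a1), at 36 h for Col1a1, at 48 h for 5 (Col1a2, Col5a1, Col6a1, Col11a2 and Col27a1) and at 72 h for 5 (Col3a1, Col9a3, Col16a1, Col23a1 and Col26a1). In the test over all 8 time points 21 members changed and Col17a1 and Col20a1 did not pass (background 78.3%).

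Nuclear RNA, which came from the same runs and differed little from cytoplasmic RNA, gave nearly the same picture. From 0 h to 96 h 17 of the 23 members tested (34 were listed) rose and 2 fell (background 30.5% and 31.2% of genes tested). The calls differed from the cytoplasmic ones for Col9a3 and Col13a1, which rose in nuclear RNA, Col16a1, which did not pass there (log2 0.77 ± 0.36 SE, adjusted p = 0.06415), Col17a1, which did not pass (log2 -1.19 ± 0.66, adjusted p = 0.117), and Col20a1, which fell (log2 -1.76 ± 0.40, adjusted p = 0.0002122). Col18a1 went from 95.6, 100.6 and 83.3 to 1274, 1287 and 991 CPM and Col2a1 from 4.54, 3.71 and 4.67 to 217, 333 and 223 CPM in runs 5, 6 and 7. With the runs as a block, Col9a3 no longer passed in nuclear RNA (log2 1.02, adjusted p = 0.055) and 16 members rose. The nuclear calls of Col9a3, Col11a2 and Col13a1 were each lost when any 1 of the 3 runs was left out.

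The size of the change did not differ detectably between the fractions. The fractions themselves were alike, with Malat1 and Neat1 only 0.37 and 0.77 higher in nuclear RNA on the log2 scale. The paper names as possible that much cytoplasmic RNA remained in the nuclear fraction. A comparison of fractions this alike can say little about a difference between nucleus and cytoplasm. No member passed the test of the nuclear against the cytoplasmic change (0 of 23 by edgeR, 0 at an unadjusted p under 0.05, 0 by DESeq2), and neither did any gene, so that the background was 0% in each direction by edgeR, with 815 of 11817 genes at an unadjusted p under 0.05 and 4 called by DESeq2. For Col18a1 the difference of the log2 changes was 0.01 ± 0.19 (SE) and for Col5a1 0.09 ± 0.21, whereas for Col3a1 and Col6a1 the errors were 1.61 and 1.40, too wide to show any but very large differences.

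**Figure D3:**
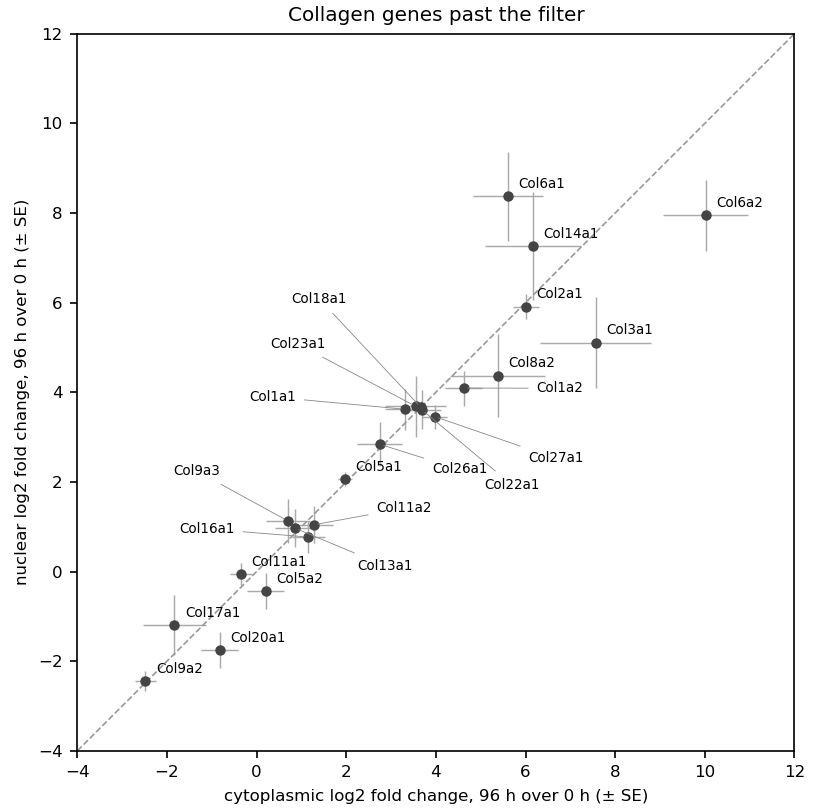
Log2 fold change from 0 h to 96 h in nuclear RNA (vertical) against cytoplasmic RNA (horizontal) for the 23 tested collagen genes, with SE bars from edgeR and a dashed line of equal change. Most points lie near the line, among them Col9a2 at -2.48 and Col2a1 at 6.02 on the horizontal axis, and the 4 farthest from it (Col3a1, Col6a1, Col6a2 and Col14a1) have 14 counts or fewer at 0 h and wide bars.

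The level itself was slightly higher in nuclear RNA for some members. Averaged over the 8 times, 6 of the 23 tested were higher in nuclear RNA and 0 lower (background 13.9% and 17.2%, with 0 lower at an unadjusted p under 0.05 and 0 lower by DESeq2). They were Col20a1 (log2 0.59 ± 0.14 SE, adjusted p = 0.001464), Col9a3 (0.48 ± 0.17), Col11a2 (0.47 ± 0.15), Col27a1 (0.44 ± 0.10, adjusted p = 0.0004651), Col9a2 (0.33 ± 0.07) and Col2a1 (0.29 ± 0.09). Each of these differences was under 1 on the log2 scale, and Malat1, given above, differed by 0.37. Leaving out run 6 reduced the 6 to 2. Col18a1 did not pass (0.09 ± 0.05, adjusted p = 0.1448). The average over times could not be estimated for Col3a1 and Col6a2, which had groups at 0 counts.

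Total RNA at 96 h against 0 h was compared over replicates 1 and 2. Of the 42 members 26 were counted highly enough to be tested, 11 rose and 2 fell, where 16.4% of 15777 genes rose and 13.3% fell. A member near 0 at 0 h enters this test only through 96 h, as did Col12a1 with 0 and 1 counts at 0 h. The counts therefore describe the members tested and not the family. Those that rose were the fibrillar Col1a2, Col2a1, Col3a1, Col5a1 and Col27a1, the type VI chains Col6a1 and Col6a2, and Col4a5, Col8a2, Col12a1 and Col23a1. Col6a1 had 0 and 0.106 CPM at 0 h and 15.6 and 24.9 CPM at 96 h (adjusted p = 0.003105), and Col27a1 had 0.371 and 0.706 against 20.8 and 39.7 CPM (adjusted p = 0.002768). For both, the 96 h libraries lay far above those of 0 h. The calls of Col1a2 and Col4a5 were lost without either 96 h library, that of Col8a2 without the 0 h library of replicate 1, and the fall of Col9a2 (adjusted p = 0.04729) without the 0 h library of replicate 1 or without either 96 h library. Col18a1 did not pass, with 68.2 and 139 CPM at 0 h and 108 and 281 CPM at 96 h (log2 0.86 ± 0.55 SE, adjusted p = 0.2856), where the groups overlap. With the replicates as a block its change did pass (log2 0.80, adjusted p = 0.014), which made 12 that rose. Before 96 h Col18a1 had been higher, at 435 CPM at 72 h in replicate 1. In replicate 3 it went from 118 CPM at 0 h to 878 CPM at 48 h. From 0 h to 96 h the ratio for Col18a1 was 1.94 in total RNA, against 12.5 in cytoplasmic RNA.

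The replicates at 96 h differed from each other. Replicate 2 was above replicate 1 for Col18a1 (281 against 108 CPM), Col2a1 (35.5 against 13.3 CPM), Col3a1 (12.8 against 5.01 CPM) and Col12a1 (12.2 against 1.73 CPM), and by less for Col27a1 and Col6a1, whereas Col1a2 was at 4.32 and 4.65 CPM. The ectoderm-like markers summed to 936 and 364 CPM in the same libraries, with all 12 at 1 CPM or more in both, and the XEN markers to 34350 and 32310 CPM. The part of cell composition in these differences was not tested.

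The series of total RNA gave the courses of members not listed in the fraction tables. Col6a5, an alternative long chain of type VI collagen, was at 3.04 CPM at 0 h, 10.8 CPM at 6 h, 13.5 CPM at 24 h, 0.146 CPM at 72 h and 0.108 CPM at 96 h in replicate 1. In replicate 3 it was at 0.076 CPM at 0 h, 10.2 CPM at 12 h and 9.44 CPM at 24 h, and 0.406 CPM at 48 h. Replicate 1 still had 6.12 and 7.56 CPM in its libraries of 36 and 48 h and replicate 3 had 5.95 CPM at 36 h. Both cultures thus had their highest level by 24 h, and the fall from 0 h to 96 h passed the test (log2 -3.80 ± 0.73 SE, adjusted p = 0.01554), a call lost without the 96 h library of replicate 1. That test held replicates 1 and 2, at 0.108 and 0.236 CPM at 96 h. The 0 h library of replicate 3, at 0.076 CPM, was not in it and lay below both. Col5a3, the minor chain of type V collagen, had 4.26 and 3.54 CPM in the replicate 1 libraries of 36 and 48 h, and 8.04 CPM at 12 h and 9.79 CPM at 48 h in replicate 3 (96 h against 0 h, log2 1.29 ± 0.66, adjusted p = 0.1925). Col12a1, a FACIT collagen, was at or under 0.258 CPM up to 24 h in all libraries and at 1.73 and 12.2 CPM at 96 h (log2 8.24 ± 1.52, adjusted p = 0.01389). Col7a1, of anchoring fibrils, reached 11.2 CPM at 48 h in replicate 3 and 2.08 CPM at most in replicate 1. The remaining type VI chains Col6a4 and Col6a6 reached 2.21 and 3.42 CPM.

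**Figure D4:**
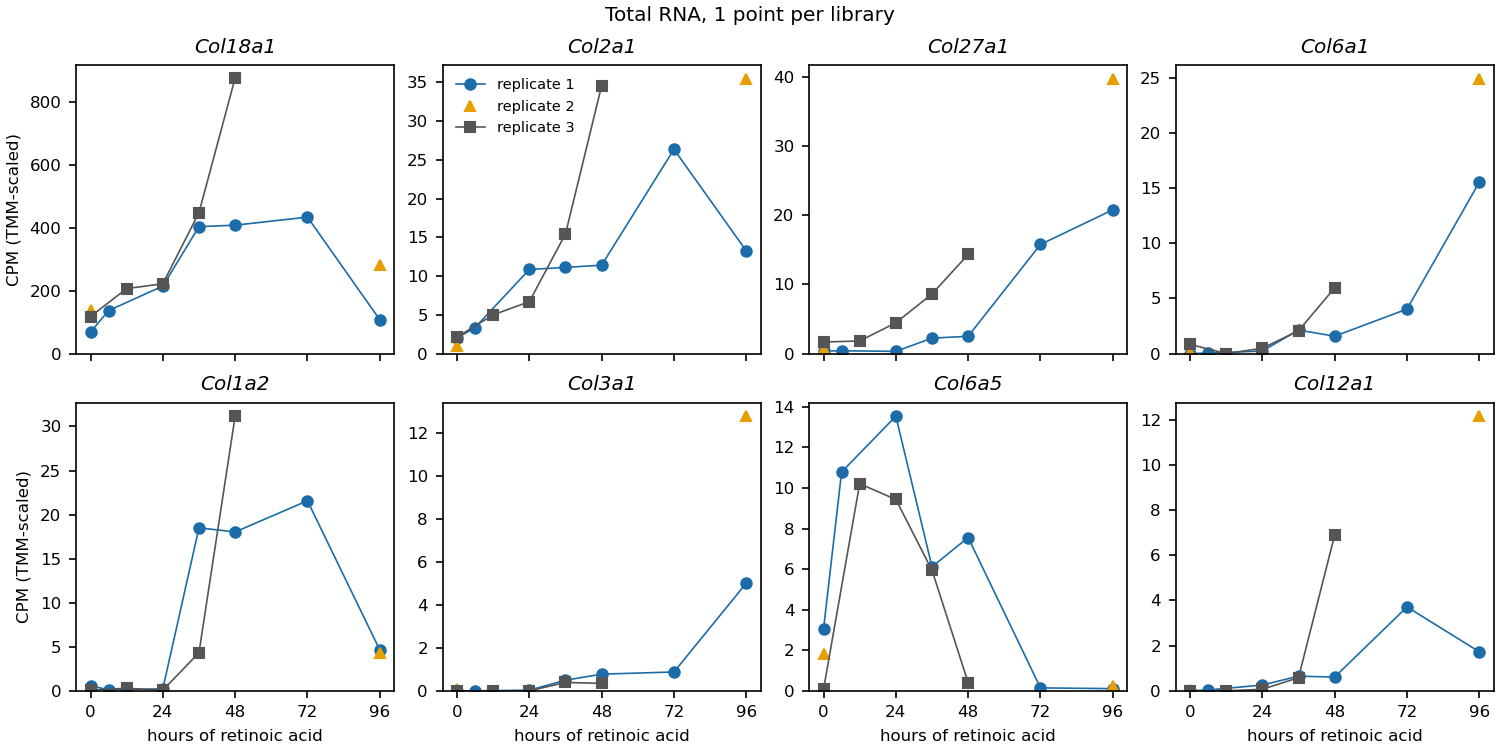
Levels of 8 collagen genes in total RNA in CPM against hours of retinoic acid, 1 point per library, with a vertical axis from 0 of its own for each gene; circles are replicate 1, triangles replicate 2 and squares replicate 3 (paired-end, up to 48 h). Col6a5 peaks by 24 h and is at 0.146 CPM at 72 h, Col27a1 and Col6a1 are highest at 96 h, and for Col18a1, Col2a1 and Col12a1 replicate 2 lies above replicate 1 at 96 h.

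Sorted XEN and ECT cells at 96 h differed widely in the level of some collagens. Of the 26 members that passed the filter 12 were lower in XEN by more than 4-fold and 0 higher (log2 ratio of CPM + 0.5). Over 15089 genes 6.25% were lower and 0.934% higher. With the deposited TPM in place of CPM, and 0.5 added to it as well, 5 members were lower by more than 4-fold. Before that addition all 12 had a lower TPM in XEN than in ECT, some at low values such as 0.03 and 1.13 TPM for Col12a1. A member near 0 in XEN passes the filter only through its ECT count, as did Col14a1 (0 and 102 counts) and Col4a6 (0 and 64 counts). These counts therefore describe the members that passed and not the family. There was 1 library per group and so no replicate check and no test, and the intervals below cover counting error only. Col18a1 was at 2.44 CPM in XEN and 306 CPM in ECT (56 and 11051 counts, 125.6 times as much in ECT). Col2a1 was at 0.174 and 35.7 CPM (205 times), Col1a2 at 0.217 and 16.3 CPM (75.1 times), Col1a1 at 0.174 and 8.83 CPM (50.8 times) and Col3a1 at 0.043 and 18.7 CPM (1 count in XEN, ratio 430 with an interval of 76.8 to 16990). The others lower in XEN were Col5a2, the FACIT collagens Col12a1, Col14a1 and Col22a1, Col26a1, and the type IV chains Col4a5 (0.304 and 6.17 CPM) and Col4a6 (0 counts in XEN, at least 13.6-fold higher in ECT).

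A few collagens were near or above their ECT level in XEN. Col27a1 was at 30.2 CPM in XEN and 7.97 CPM in ECT, 3.79 times as much in XEN. Col6a1 was at 17.1 and 14.7 CPM, Col6a2 at 4.78 and 2.46 CPM, Col23a1 at 5.00 and 3.24 CPM and Col5a1 at 27.4 and 32.1 CPM. The counting intervals of Col27a1, Col6a2 and Col23a1 did not overlap between the libraries and those of Col6a1 did, while the fibrillar Col1a1, Col1a2, Col2a1 and Col3a1 were at 5 counts or fewer in XEN.

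**Figure D5:**
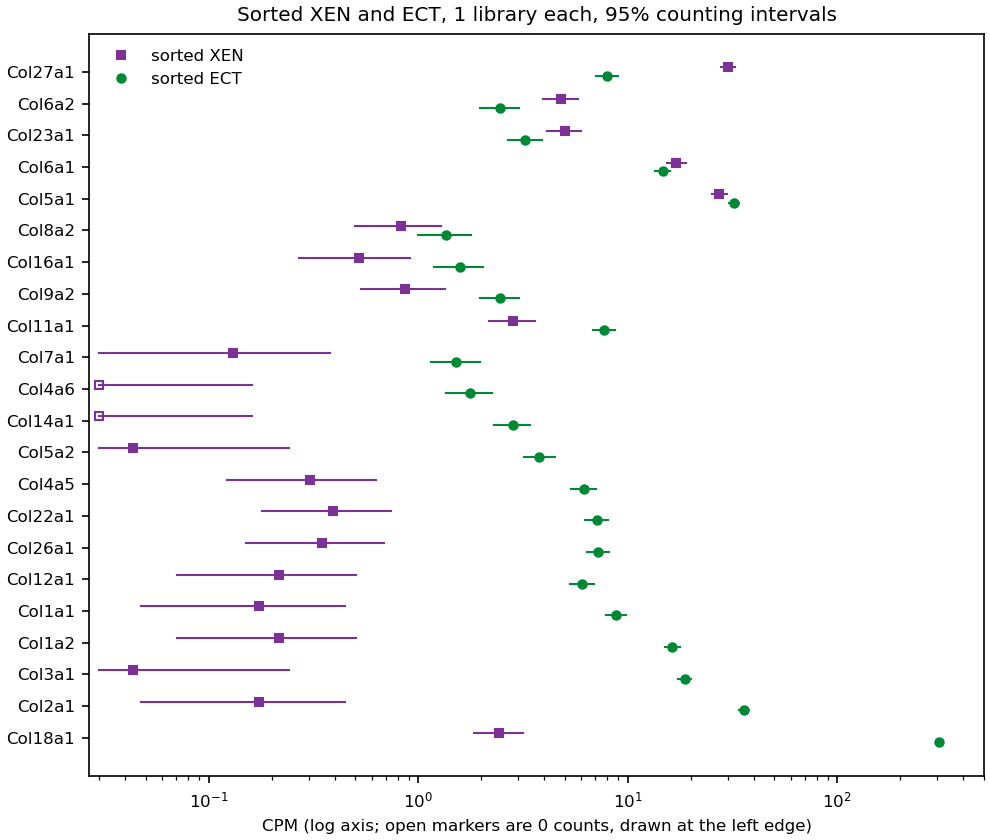
CPM (log axis) in sorted XEN (squares) and sorted ECT (circles) for the members at 1 CPM or more in either library, ordered by the log2 ratio of CPM + 0.5, with 95% Poisson intervals and 1 library each. With 0.5 CPM added, Col27a1 lies farthest to the XEN side (30.2 against 7.97 CPM) and Col18a1 farthest to the ECT side (2.44 against 306 CPM), whereas by CPM alone Col3a1 and Col2a1 differ by more.

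Markers moved with this difference too. The gates that the label field for sorting gives for these libraries are the reverse of those in the extraction protocol, and the transcripts of the sort markers, Pdgfra (837 CPM in XEN, 224 CPM in ECT) and Cd24a (23.4 and 707 CPM), matched the protocol's gates. The XEN markers were not absent from ECT, where they summed to 14570 CPM against 43570 CPM in XEN, with Dab2 at 970 and 1378 CPM and Gata6 at 143 and 605 CPM. The 12 ectoderm-like markers summed to 952 CPM in ECT (all at 1 CPM or more) and 136 CPM in XEN (8 at 1 CPM or more). The 14 fibroblast and mesenchyme markers summed to 508 CPM in ECT (10 at 1 CPM or more) and 34.9 CPM in XEN (5). They were led in ECT by Tagln (236 CPM, and 17.05 CPM in XEN) and Acta2 (223 and 2.13 CPM). Dcn (2.33 CPM in ECT) and Lum (0.36 CPM) were near 0. The part of these markers in the collagen difference was not tested.

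The genes that modify, export, process and bind collagens were described from 5 lists with 63 genes, of which 46 were listed in the cytoplasmic tables and 42 tested. From 0 h to 96 h 30 rose, 3 fell and 9 did not pass, where 31.8% of all genes tested rose and 29.5% fell, and the same shares stand beside each list that follows. The median log2 change was 1.41 over those tested, against 0.02 over all genes, and includes genes that entered the test through 96 h alone, such as Itga2 with 0 counts at 0 h. All 12 tested modifying enzymes and chaperones rose. P4ha2 and P4ha1, catalytic subunits of prolyl 4-hydroxylase, went from 13 ± 3.7 to 380 ± 64 CPM and from 51.6 ± 6.1 to 521 ± 133 CPM, and their partner P4hb went from 604 ± 11 to 1613 ± 222 CPM (SD, n = 3; adjusted p = 4.298e-17 for P4hb).

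Among the export genes 5 of 11 rose, 1 fell and 5 did not pass, a share of rises near that of all genes (31.8%). The transcription factor gene Creb3l1, which drives secretory genes in collagen-making cells, went from 8.02 ± 2.02 to 78.5 ± 22.5 CPM. The cargo adaptor gene Sec24d went from 60.3 ± 0.5 to 189 ± 18 CPM and Mia3, whose protein TANGO1 loads procollagen, from 43.1 ± 4.8 to 92.2 ± 2.8 CPM. The coat gene Sec23a fell from 221 ± 13 to 163 ± 8 CPM (log2 -0.44 ± 0.10 SE, adjusted p = 0.000167).

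Of 8 tested processing and crosslinking genes 5 rose and 1 fell (31.8% and 29.5% over all genes). Bmp1, the procollagen C-proteinase, went from 2.56 ± 0.43 to 76.1 ± 4.6 CPM, whereas Pcolce, which enhances that enzyme, fell from 158 ± 17 to 19.2 ± 6.2 CPM (log2 -3.03 ± 0.18 SE, adjusted p = 5.702e-18). The lysyl oxidase gene Loxl2 went from 2.00 ± 0.66 to 424 ± 81 CPM, and Adamts3, a procollagen N-proteinase, from 0.435 ± 0.181 to 5.27 ± 1.77 CPM. The enzyme that trims the chains and its enhancer thus moved in opposite directions.

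Of 6 tested receptors 4 rose and 1 fell (31.8% and 29.5% over all genes). The discoidin receptor genes went opposite ways, with Ddr1 from 19.3 ± 1.2 to 100.5 ± 5.6 CPM and Ddr2, which binds fibrillar collagens, from 36.7 ± 2.5 to 6.64 ± 2.41 CPM (log2 -2.45 ± 0.27 SE, adjusted p = 4.183e-10). The uptake receptor gene Mrc2 went from 0.892 ± 0.626 to 72.3 ± 4.8 CPM, and the integrin gene Itga2 had 0 counts at 0 h and 3.15 ± 0.31 CPM at 96 h. Of 5 tested degradation genes, beside the same shares, 4 rose and none passed the test for a fall (Ctsk log2 -0.54 ± 0.70 SE, adjusted p = 0.5248). Both metalloproteinase inhibitor genes tested rose, Timp3 from 3.68 ± 1.27 to 166 ± 47 CPM and Timp2 from 1.89 ± 0.51 to 170 ± 48 CPM, as did the collagenase gene Mmp14, from 10.0 ± 1.3 to 24.5 ± 1.0 CPM.

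Among the members, the largest per-length levels at 96 h in cytoplasmic RNA after Col18a1 were those of Col2a1 (65.0 ± 3.8 TPM), Col27a1 (27.4 ± 5.5 TPM), Col5a1 (24.8 ± 1.0 TPM) and Col1a2 (14.8 ± 0.5 TPM; SD, n = 3). Col27a1 and Col5a1 overlapped. At 0 h the order was Col9a2 (28.9 ± 3.9 TPM), Col18a1 (20.6 ± 2.8 TPM), Col5a1 (5.19 ± 0.60 TPM) and Col11a1 (4.32 ± 0.77 TPM), of which Col5a1 and Col11a1 overlapped. The TPM summed over the 34 listed members went from 75.3 ± 3.9 at 0 h to 523 ± 10 at 96 h. Per-length levels rest on the transcript lengths that the counting assigned, which varied between fraction libraries for many members, from 2408 to 5104 bases for Col2a1, from 2515 to 5348 for Col1a2 and from 2228 to 7060 for Col11a1 where their TPM was 5 or more, and less for Col18a1. Ratios and orders in TPM carry that error.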

How the data were processed

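RNA was measured in 48 fraction libraries, 14 libraries of total RNA and 2 sorted libraries. The authors made stranded poly(A) libraries, aligned fraction and paired-end reads with STAR 2.6.1a after trimming with Trimmomatic 0.38 and counted them with RSEM 1.3.1, and aligned single-end reads with Bowtie2 2.2.6 for RSEM 1.2.28, on mm10 with Ensembl annotation, per the submitters' processing notes and methods. The deposited values were expected counts, TPM and mean transcript lengths per gene. Expected counts split reads between similar genes and were rounded here to whole numbers. Ensembl identifiers were matched to symbols in a name table, and promoter sequences came from RefSeq.

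Genes with a mean count above 10 were tested with edgeR 4.0.16 (R 4.3.3; quasi-likelihood, TMM factors, Benjamini-Hochberg adjustment over all genes tested, threshold 0.05), in 1 fit over all 48 fraction libraries, and in a separate fit over the 4 single-end libraries of total RNA at 0 and 96 h. p-values measure the spread between the 3 runs or the 2 cultures. The scripts were tested on simulated data. DESeq2 1.42.0, other scaling, other filters, the replicate block and leaving out each replicate were the alternatives. The labels give the replicate number and, in library names, the run, and the study's sample sheet calls it the differentiation run, so that the block pairs samples of a run. Deviations from the group means at 96 h and 0 h in cytoplasmic RNA correlated at 0.126, 0.011 and 0.082 over genes in runs 5, 6 and 7.

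For sorted cells the log2 ratio of CPM + 0.5 was used, with exact Poisson intervals at 95%. In a group with no counts the floor was 3 counts. Members were given with values in every library where a group reached 200 normalized counts, or 10 CPM in sorted cells. Pathway genes were named by the lowest adjusted p, up to 3 in each direction of each list. Other members are named to account for the family, and Malat1 and Neat1 were chosen after their values were seen. The members and lists were chosen with earlier results of these data known. Columns of the small RNA and transfection libraries were not used here.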

Additional observations from a re-analysis of the deposited data

How the results depend on the processing

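Of 1066 values of single genes under the alternatives 1025 kept their direction and side of the threshold, 32 lost the threshold, 9 gained it and 0 reversed. Of 132 counts of genes called, 120 were within 1.5 times the reported count. With a mean count above 50, where fewer members are tested, 10 rose and 1 fell in cytoplasmic RNA (16 and 2 reported), 1 fell in nuclear RNA (2 reported) and 0 fell in total RNA (2 reported). Leaving out 1 run at a time gave 1 to 2 members that fell in cytoplasmic RNA, 2 to 7 that were higher in nuclear RNA (6 reported, 2 without run 6) and 5 to 7 that fell at any earlier time (9 reported, 5 without run 5). Without the 6 h cytoplasmic library of run 5 alone, an alternative chosen after seeing the data, 6 fell at any earlier time. Leaving out 1 total RNA library at a time gave 0 to 2 that fell. With the deposited TPM in place of CPM, 5 members were lower in XEN by over 4-fold (12 reported), and the cause was not tested. The replicate block changed 2 of 136 calls, both given in the report (16 that rose in nuclear RNA, 12 in total RNA). In nuclear RNA the calls of Col11a2, Col13a1 and Col9a3 were each lost without any 1 of the runs, and in total RNA those of Col1a2 and Col4a5 without either 96 h replicate. Counts of 10 or fewer per library at 0 h limit the size of the largest ratios, and 1 library each limits the sorted pair to counting error.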
